A study of Mus musculus with 6 samples.

Results

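The 10 genes described here encode proteins of the secondary, or specific, granules of neutrophils and surface proteins that appear at the myelocyte stage, when those granules are made. They were chosen by GENCODE M21 symbol from the 43629 gene IDs of the deposited table: Ngp, Ltf, Camp, Lcn2, Cd177, Itgb2l, Chil3, Ly6g, Pglyrp1 and Fcnb. All 10 were found, each as 1 gene ID, and all 10 passed the filter on low counts. Ly6g passed it through the Gata2+/f libraries, since its counts in Gata2+/+ replicates 3, 5 and 6 were 4, 24 and 5.

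The 6 libraries were made from marrow sorted for c-kit, taken from C57BL/6 mice whose leukaemia had reached its end stage. Both groups carried a Cbfb-MYH11 knockin, the mouse form of a fusion gene of human acute myeloid leukaemia. The genotypes were Gata2+/+ (replicates 3, 5 and 6) and Gata2+/f (replicates 7, 9 and 11), where f is the labels' name for the altered allele. The labels give neither the ages nor what deletes the f allele, and state the knockin only for the series. Total expected counts (RSEM's estimated reads per gene) lay between 53789568 and 67854631 a library. Gata2 itself was read at 886, 887 and 737 CPM in Gata2+/+ replicates 3, 5 and 6 and 498, 273 and 264 CPM in Gata2+/f replicates 7, 9 and 11. CPM are counts scaled to a common library size with TMM factors. Kit, which encodes the sorted receptor, stood at 826, 1222 and 1466 CPM in Gata2+/+ and at 193, 175 and 328 CPM in Gata2+/f, so it was detected in each library and the groups did not overlap.

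Neutrophils store their antimicrobial proteins in granules that are filled in the order in which the genes are transcribed. Primary granules with myeloperoxidase and serine proteases are formed in promyelocytes, secondary granules with lactoferrin and cathelicidin in myelocytes, and gelatinase granules in later cells. Secondary granule genes depend on the transcription factor C/EBP epsilon, and their transcripts are scarce in normal stem cells and early progenitors, the usual bearers of Kit. In bulk RNA, fewer cells of a type and less RNA per cell cannot be told apart.

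The 10 genes lie on 6 chromosomes, so the promoters are shown for genes that had like differences at separate loci and for Chil3, which differed from them. The RefSeq windows of all 10 genes were matched (GRCm38.p6), and the 250 bases before the annotated start are printed 5′ to 3′. Capitals mark matches to the C/EBP core TTGCNNAA on either strand. The windows of Ngp and Camp reach farther into the gene as GENCODE M21 draws it than the printed ones do. Those of Lcn2 and Pglyrp1 lie wholly inside the gene so drawn. All of these were searched but are not printed.
Ltf (chr9:111019042-111019291, forward strand): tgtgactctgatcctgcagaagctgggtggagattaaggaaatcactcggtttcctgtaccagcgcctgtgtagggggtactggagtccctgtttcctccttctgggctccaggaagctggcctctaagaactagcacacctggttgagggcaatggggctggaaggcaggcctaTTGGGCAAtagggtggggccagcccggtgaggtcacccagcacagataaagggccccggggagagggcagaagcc
Fcnb (chr2:28084879-28085128, reverse strand): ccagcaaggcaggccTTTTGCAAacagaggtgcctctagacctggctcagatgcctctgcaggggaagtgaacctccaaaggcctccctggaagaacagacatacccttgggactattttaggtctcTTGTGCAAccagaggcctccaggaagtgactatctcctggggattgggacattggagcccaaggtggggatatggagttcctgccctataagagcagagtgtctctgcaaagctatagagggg
Itgb2l (chr16:96443615-96443864, reverse strand): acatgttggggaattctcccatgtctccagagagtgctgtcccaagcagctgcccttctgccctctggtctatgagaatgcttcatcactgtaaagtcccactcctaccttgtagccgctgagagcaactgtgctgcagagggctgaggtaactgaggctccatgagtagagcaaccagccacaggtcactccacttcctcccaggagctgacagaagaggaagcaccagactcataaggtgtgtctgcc
Chil3 (chr3:106167565-106167814, reverse strand): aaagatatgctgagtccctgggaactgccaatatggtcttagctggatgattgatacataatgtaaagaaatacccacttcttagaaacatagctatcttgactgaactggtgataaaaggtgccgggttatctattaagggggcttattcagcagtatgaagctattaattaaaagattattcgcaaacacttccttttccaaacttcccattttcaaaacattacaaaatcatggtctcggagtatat
The window of Ngp held 2 matches, at −138 and −11 counted from the annotated start (−1 is the last base before it). Fcnb also held 2, at −235 and −123, and Ltf held 1, at −75. With Lcn2 and 1 of the windows of Ly6g, 5 of 10 genes held the C/EBP core, against 9.56% of all 32851 RefSeq windows of that length. The Lcn2 match and the Ngp match at −11 lie inside the gene as GENCODE M21 draws it. Itgb2l, Chil3, Camp, Cd177 and Pglyrp1 held none. The GATA hexamer AGATAA was in the windows of Ltf, Pglyrp1 and Chil3 (9.99% of all windows), and GAGGAA, a core bound by PU.1, in those of 6 genes (23.3%). TATAAA was in those of Cd177 and Ly6g (12.4%). Both strands were searched, and matches of different motifs overlapped 0 times in the windows of the 10 genes. Such matches describe the letters only.

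Of the 10 genes, 9 had a higher level in each Gata2+/f library than in any Gata2+/+ library, and Chil3 was the exception. A higher level without overlap was seen for 13.1% of the 15432 genes tested, and a lower one for 16.6%. The median log2 fold change of the 10 (Gata2+/f over Gata2+/+) was 4.12, against 0.019 over all genes tested. In edgeR's quasi-likelihood test 0 of the 10 passed an adjusted p under 0.05 (Benjamini-Hochberg over all genes), as did 0 of all genes (0%). All 10 had an unadjusted p under 0.05 and were higher, against 22.6% of genes with such a p (11.1% higher, 11.5% lower). DESeq2 called all 10 higher at an adjusted p under 0.05, where it called 6.58% of genes higher and 6.09% lower. The labels do not say whether each library came from a separate mouse, and if not, the p-values measure only the spread between these samples.

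**Figure D1:**
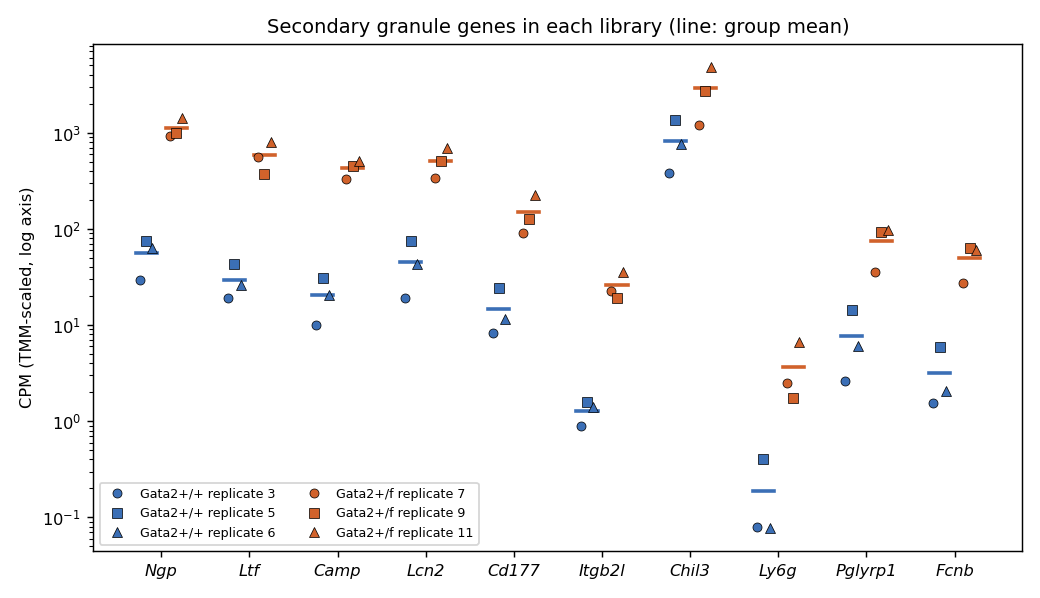
CPM on a log axis of the 10 secondary granule genes in each library; blue points are Gata2+/+, orange points Gata2+/f, and lines are group means. For 9 genes all orange points lie above all blue points, while for Chil3 Gata2+/f replicate 7 (1197 CPM) lies under Gata2+/+ replicate 5 (1337 CPM).

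The matrix and antimicrobial proteins of the granule come first. Ngp, a cathelicidin-related neutrophil granule protein, stood at 29.1, 74.6 and 62.9 CPM in Gata2+/+ replicates 3, 5 and 6 and 913, 987 and 1419 CPM in Gata2+/f replicates 7, 9 and 11. Its lowest Gata2+/f library was 12.3 times its highest Gata2+/+ library. The log2 fold change was 4.32 (SE 0.44; edgeR adjusted p = 0.0509). Camp, whose product is cleaved to the mouse cathelicidin peptide, had 10.1, 30.5 and 20.6 CPM against 329.7, 446 and 501 CPM, in the same order of libraries as Ngp within each group. The ratio of Ngp to Camp was nearly constant, from 2.21 to 3.05 over the 6 libraries. Lactoferrin, the iron-binding protein encoded by Ltf, had 19.0, 42.7 and 26.2 CPM against 561, 374 and 802 CPM. Here Gata2+/f replicate 9 was the lowest of its group. The log2 fold changes of Camp and Ltf were 4.38 (SE 0.46) and 4.31 (SE 0.45), each at adjusted p = 0.0509 in edgeR's test.

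Lcn2 (lipocalin 2, which binds the iron carriers of bacteria) stood at 19.3, 73.9 and 43.2 CPM in Gata2+/+ replicates 3, 5 and 6. In Gata2+/f replicates 7, 9 and 11 it had 336, 505 and 691 CPM. Its groups were 4.55 times apart at their nearest libraries, less than for Ngp, Ltf (8.76) or Camp (10.8). The log2 fold change was 3.49 (95% interval 2.24 to 4.74; edgeR adjusted p = 0.0955). Pglyrp1, a peptidoglycan-binding protein that kills bacteria, had 2.60, 14.4 and 6.04 CPM against 35.2, 92.3 and 96.9 CPM. Gata2+/f replicate 7 was the lowest of its group, and the nearest libraries of the groups were 2.44 times apart. Its log2 fold change was 3.28 (1.69 to 4.88; edgeR adjusted p = 0.0966). Fcnb, ficolin B, a lectin that recognises microbial sugars and is made from the promyelocyte stage on, had 1.54, 5.87 and 2.07 CPM against 27.5, 62.6 and 60.1 CPM. It was the 1 gene of the 10 that was highest in Gata2+/f replicate 9, by a small margin over replicate 11. The log2 fold change of Fcnb was 3.98 (2.54 to 5.43; edgeR adjusted p = 0.0955).

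Among the surface proteins, Cd177 encodes a GPI-anchored neutrophil antigen that is stored in specific granules and binds the endothelial protein PECAM1. Its level was 8.30, 24.3 and 11.6 CPM in Gata2+/+ and 89.6, 128 and 227 CPM in Gata2+/f, without overlap. The fitted log2 fold change was 3.33 (SE 0.52; edgeR adjusted p = 0.0955). Itgb2l, an integrin beta chain close to Itgb2, had 0.900, 1.57 and 1.40 CPM against 22.5, 19.1 and 35.8 CPM. Both of its groups were tight, with a spread of 1.74 times within Gata2+/+ and 1.88 times within Gata2+/f. Its log2 fold change was 4.32 (SE 0.43; adjusted p = 0.0509), and its unadjusted p ranked 2 among all genes. Ly6g, the antigen used to identify mouse neutrophils by flow cytometry, had 0.0800, 0.409 and 0.0779 CPM against 2.49, 1.74 and 6.68 CPM. These Gata2+/f levels rest on 176, 104 and 447 counts. The log2 fold change of Ly6g was 4.25 with a wide 95% interval of 2.10 to 6.40 (edgeR adjusted p = 0.0966).

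Chil3 (Ym1, a chitinase-like lectin of neutrophils and some macrophages) was the most abundant of the 10 by CPM in each library and the one with the smallest difference. The level was 379, 1337 and 760.2 CPM in Gata2+/+ replicates 3, 5 and 6 and 1197, 2690.4 and 4806 CPM in Gata2+/f replicates 7, 9 and 11. The groups overlapped, since Gata2+/f replicate 7 lay below Gata2+/+ replicate 5. Its log2 fold change was 1.81 (95% interval 0.37 to 3.25; edgeR adjusted p = 0.165). The upper bound of that interval lies under the lower bounds of Ltf (3.27), Ngp (3.29), Camp (3.32) and Itgb2l (3.32). The difference between Chil3 and these genes was not tested by the fit. Chil3 shares 26.9% of its 50-base transcript runs with other genes, chiefly Chil4. Chil4 itself was given 0.0779 to 0.478 CPM, too few counts to be tested.

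The make-up of the secondary granule transcripts differed between the groups. Chil3 took 80.7%, 83.3% and 81.4% of the summed CPM of the 10 genes in Gata2+/+ replicates 3, 5 and 6, and 34.1%, 50.7% and 55.6% in Gata2+/f replicates 7, 9 and 11. Ngp took 4.65% to 6.73% in Gata2+/+ and 16.4% to 26.0% in Gata2+/f. Each of the other 9 had a larger share in each Gata2+/f library than in any Gata2+/+ library. The shares of a library are tied, so where Chil3 takes less the others together must take more. Such shares, like ratios within a library, are not moved by the scaling between libraries. As a ratio to Chil3, Ngp had 0.0768, 0.0558 and 0.0828 in Gata2+/+ and 0.763, 0.367 and 0.295 in Gata2+/f. Camp, Lcn2, Ltf, Itgb2l, Fcnb, Cd177, Ly6g and Pglyrp1 also had ratios to Chil3 that did not overlap, with the nearest libraries 1.87 times (Pglyrp1) to 3.85 times (Camp) apart. All of these ratios share the same denominator, the gene with the smallest difference of the 10. They restate the differences given above and are not separate results.

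**Figure D2:**
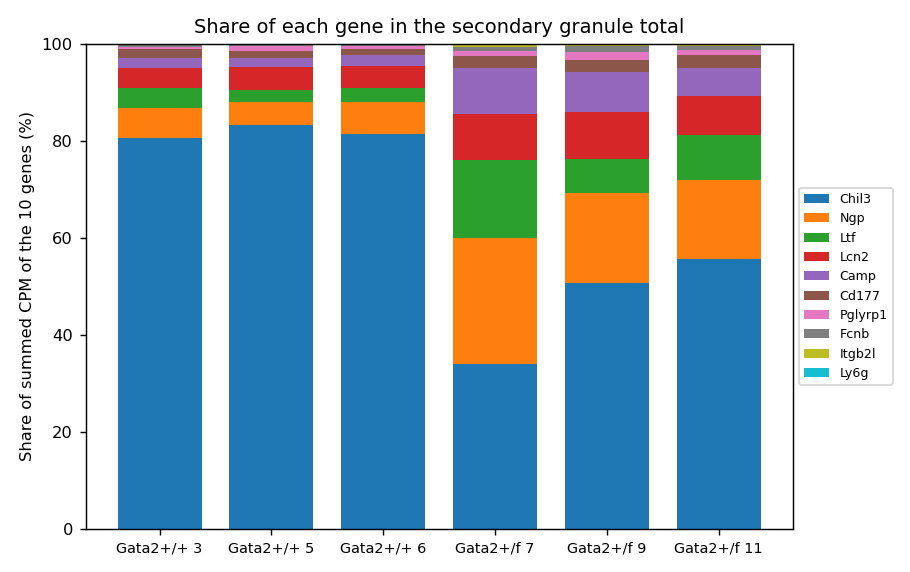
Share of each of the 10 genes in their summed CPM, one bar per library. Chil3 takes 80.7% to 83.3% in the Gata2+/+ libraries and 34.1% to 55.6% in the Gata2+/f libraries, where Ngp, Ltf, Camp and Lcn2 take more.

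Per kilobase of merged exon length, which counts all annotated exons of a gene, the order of the 10 was much alike over the libraries. This length can exceed that of the transcript made, so the ranks between genes depend on the annotation. Chil3, Ngp and Camp were the top genes in each library, and Itgb2l and Ly6g the lowest. Chil3 was 9.05 to 13.4 times Ngp on this scale in Gata2+/+, 2.04 and 2.54 times in Gata2+/f replicates 9 and 11, and 0.981 times in Gata2+/f replicate 7. The distance from the highest to the lowest gene was 2261 to 5636 times in Gata2+/+ and 283 to 894 times in Gata2+/f. In Gata2+/+ replicates 3 and 6 the lowest gene was Ly6g, with 4 and 5 counts, so the distances there are uncertain. The middle ranks moved: Ltf stood above Lcn2 in Gata2+/f replicate 7 only.

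Libraries of 1 genotype also differed in how far the genes were expressed. Gata2+/+ replicate 5 was the highest of its group for 10 of 10 genes, and Gata2+/+ replicate 3 the lowest for 9, with Ly6g the exception. Within Gata2+/f, replicate 11 was the highest for 9 of 10 genes. The summed level was 470.3, 1605 and 934 CPM in Gata2+/+ replicates 3, 5 and 6 and 3515, 5306 and 8646 CPM in Gata2+/f replicates 7, 9 and 11. Without Chil3 it was 90.9, 268 and 174 CPM against 2318, 2615 and 3840 CPM. The nearest libraries were then 8.64 times apart, against 2.19 times with Chil3. Chil3 was left out because its groups overlap, so the wider gap follows from that choice and is not a separate result. Gata2+/f replicates 7 and 9 differed by gene: replicate 9 had 2.62 times the Pglyrp1, 2.28 times the Fcnb and 2.25 times the Chil3 of replicate 7, but 0.667 times its Ltf, 0.698 times its Ly6g and 0.847 times its Itgb2l. Pearson's r of log2(CPM + 1) between pairs of the 10 genes was taken over all 6 libraries, so it includes the difference between the groups. It was highest for Ngp and Camp (0.998) and lowest for Itgb2l and Chil3 (0.818). It was 0.95 or more for 26 of 45 pairs.

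Other genes of specific granules and myelocytes were mostly higher in Gata2+/f as well. Of 21 tested, 18 had positive and 3 negative log2 fold changes (median 2.18). Without overlap, 15 were higher and 2 lower, against 13.1% and 16.6% of all genes. None of the 21 passed edgeR's adjusted test, while 17 were higher and 2 lower by the unadjusted p (11.1% and 11.5% of all genes). DESeq2 called 12 higher and 2 lower (6.58% and 6.09% of genes). Chil1, the human YKL-40 gene's mouse counterpart and a paralog of Chil3, stood at 0.360, 1.09 and 0.623 CPM in Gata2+/+ and at 8.93, 11.2 and 26.9 CPM in Gata2+/f, with a log2 fold change of 4.50. Ceacam10, the next tested gene beside Cd177 on chromosome 7, had 0.160, 0.0681 and 0.0623 CPM against 1.22, 1.96 and 5.35 CPM (4.87). Its Gata2+/+ levels rest on few counts, since 3 counts are 0.0600, 0.0511 and 0.0467 CPM in replicates 3, 5 and 6. Orm1, an acute phase lipocalin, stood at 0.240 to 1.14 CPM against 8.58 to 9.71 CPM (3.47), and Anxa1, a phospholipid-binding protein of neutrophils, at 24.7 to 61.7 CPM against 121 to 287 CPM (2.53). The 3 with negative values, named after their values were seen, were the tetraspanin gene Cd63 (−3.20), Serpinb1a, an inhibitor of granule proteases (−1.66), and Tcn2, a cobalamin carrier (−0.82). Cd63 is also a mast cell gene. Of 10 mast cell and basophil markers 9 had negative values, and their summed level was 9138 to 10879 CPM in Gata2+/+ and 920 to 3566 CPM in Gata2+/f; their part in the Cd63 difference was not tested.

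Primary granule genes, which are transcribed earlier, were counted in the same way. Of 13 tested, 9 had positive and 4 negative log2 fold changes (median 1.47, or 0.53 without Gata2+/f replicate 9), and 2 were higher and 2 lower without overlap, against 13.1% and 16.6% of all genes. None passed edgeR's adjusted test. By the unadjusted p 4 were higher and 2 lower (11.1% and 11.5% of all genes), and DESeq2 called 2 higher and 0 lower (6.58% and 6.09% of genes). The genes with the smallest p were Gusb, a lysosomal glucuronidase (0.83), Srgn, the granule proteoglycan core (−1.24), Lyz2, lysozyme (1.98), and Prtn3, proteinase 3 (1.84). Myeloperoxidase, elastase, proteinase 3 and cathepsin G (Mpo, Elane, Prtn3 and Ctsg), a set picked after their values were seen, summed to 908, 3202 and 1331 CPM in Gata2+/+ and 2240, 11397 and 2613 CPM in Gata2+/f. Gata2+/f replicate 9 stood far above the others, and replicates 7 and 11 lay below Gata2+/+ replicate 5. The 9 secondary granule genes without Chil3 were 0.1002, 0.0838 and 0.131 times that sum in Gata2+/+ and 1.04, 0.229 and 1.47 times in Gata2+/f. Chil3, the gene left out of that sum because its groups overlap, had ratios of 0.417 to 0.571 against 0.236 to 1.84, with overlap. Since the genes of these and the other ratios were picked with their values seen, the ratios are given as descriptions with no test.

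**Figure D3:**
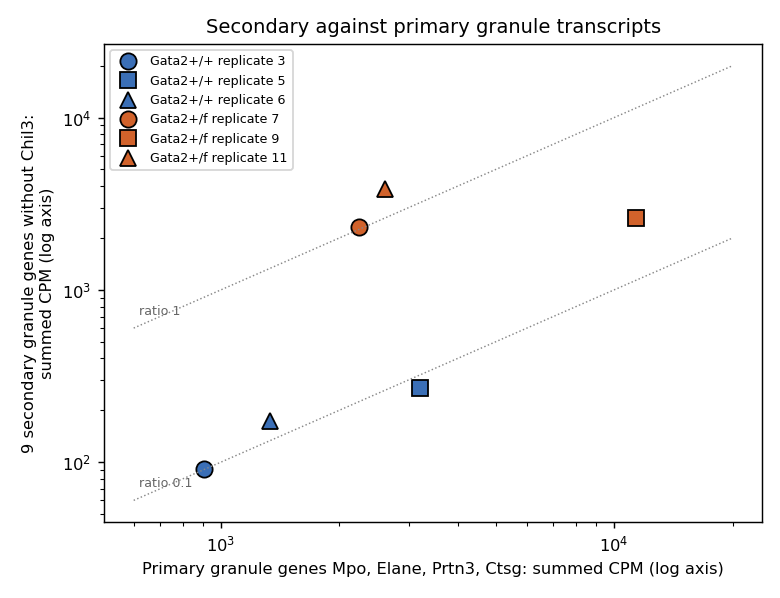
Summed CPM of 9 secondary granule genes (without Chil3) against summed CPM of Mpo, Elane, Prtn3 and Ctsg, 1 point per library on log axes; dotted lines mark ratios of 0.1 and 1. The Gata2+/+ points lie at ratios of 0.0838 to 0.131, Gata2+/f replicate 9 at 0.229, and Gata2+/f replicates 7 and 11 at 1.04 and 1.47.

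Genes of gelatinase granules, secretory vesicles and mature neutrophils had a median log2 fold change of 2.16 (3.15 without Gata2+/+ replicate 5), and 24 of 25 were positive. Without overlap, 15 of the 25 were higher and 0 lower, against 13.1% and 16.6% of all genes. None passed edgeR's adjusted test, and 18 were higher and 0 lower by the unadjusted p (11.1% and 11.5% of all genes). DESeq2 called 18 higher and 0 lower (6.58% and 6.09% of genes). S100a8 and S100a9, the subunits of the cytosolic protein calprotectin, together had 59.8, 177 and 98.4 CPM against 1819, 1822 and 4262 CPM. The 9 secondary granule genes were 1.52 to 1.77 times that sum in Gata2+/+ and 0.901 to 1.44 times in Gata2+/f, lower without overlap. Fpr2, a formyl peptide receptor, had a log2 fold change of 3.12 and Padi4, which citrullinates histones, one of 2.74. Markers of the most mature cells were present at low levels: Mmp9 (gelatinase B), Mmp25, Cxcr2 and Retnlg, picked after their values were seen, summed to 6.70, 24.5 and 5.20 CPM in Gata2+/+ and 32.5, 54.7 and 217 CPM in Gata2+/f. Against that sum the 9 secondary granule genes stood at 10.96 to 33.5 in Gata2+/+ and 17.7 to 71.3 in Gata2+/f, with overlap. All 25 genes summed to 331 to 710 CPM in Gata2+/+ and 2422 to 5908 CPM in Gata2+/f, where S100a8 and S100a9 made up most of the sum. None of the 25 was at 0 in any library, and their part in the secondary granule result was not tested.

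**Figure D4:**
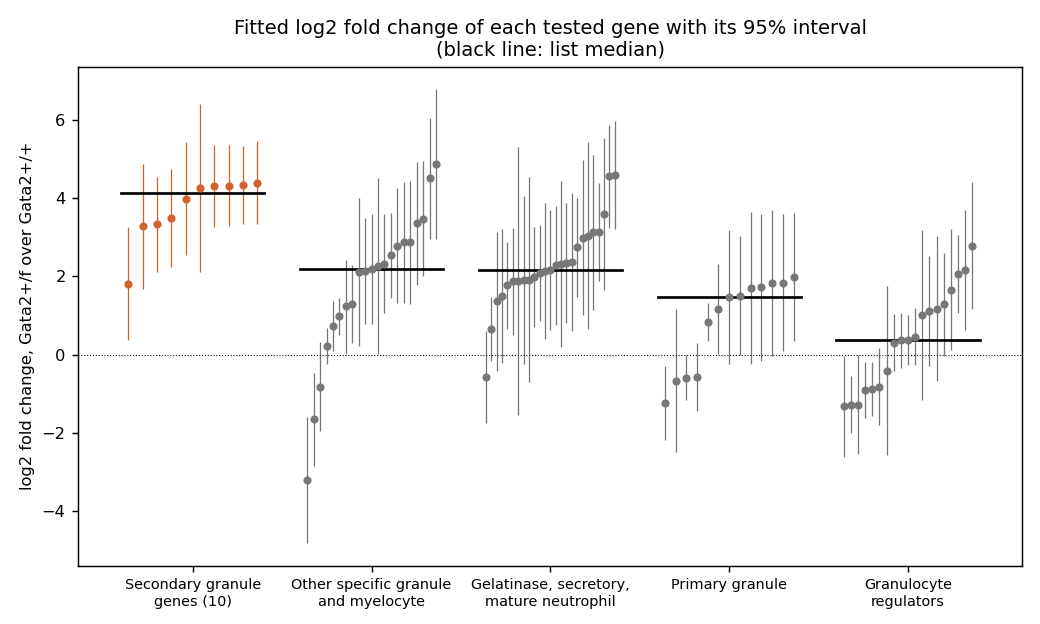
Fitted log2 fold change, Gata2+/f over Gata2+/+, of each tested gene of 5 gene lists with its 95% interval; black lines are list medians and the secondary granule genes are in orange. The medians are 4.12 for the secondary granule genes, 2.18 for other specific granule genes, 2.16 for later neutrophil genes, 1.47 for primary granule genes and 0.37 for granulocyte regulators.

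Of 19 regulators of granulocyte development tested, 12 were positive, and the median log2 fold change was 0.37. Without overlap, 3 were higher and 4 lower, against 13.1% and 16.6% of all genes. None passed edgeR's adjusted test, and 4 were higher and 5 lower by the unadjusted p (11.1% and 11.5% of all genes). DESeq2 called 3 higher and 1 lower (6.58% and 6.09% of genes). Gata2, the gene altered by the genotype, is among the 19 and was the 1 that DESeq2 called lower. Cebpe, the C/EBP factor of the myelocyte stage, stood at 1.06, 5.69 and 1.90 CPM in Gata2+/+ replicates 3, 5 and 6 and 10.7, 28.2 and 20.6 CPM in Gata2+/f replicates 7, 9 and 11. Its groups did not overlap (log2 fold change 2.78, SE 0.70; edgeR adjusted p = 0.111). The order of libraries within Gata2+/f was that of Fcnb, with replicate 9 at the top. Csf3r, the receptor for G-CSF, had 11.4, 42.4 and 9.89 CPM against 44.2, 103 and 137 CPM (2.16). The other C/EBP genes overlapped between the groups: Cebpa had a log2 fold change of 1.11, Cebpd 1.01, Cebpg 0.37 and Cebpb −0.41. So did Gfi1, a repressor that neutrophil development requires (1.17). Irf8, which directs cells to monocytes and dendritic cells, had 2.06.

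Proteins that the granule products bind or travel with were also counted. Of 13 tested, 8 had positive log2 fold changes (median 0.70), and none passed edgeR's adjusted test. By the unadjusted p 5 were higher and 1 lower (11.1% and 11.5% of all genes), and DESeq2 called 2 higher and 0 lower (6.58% and 6.09% of genes). Pecam1, the partner of Cd177 on endothelium, had 8.82, 24.5 and 7.38 CPM against 46.5, 52.6 and 64.1 CPM (4.01 times by the fit), and Sort1, a sorting receptor, had a log2 fold change of 1.31. Of 13 tested paralogs of the 10 genes, 9 had positive values (median 0.96), with none past edgeR's adjusted threshold. DESeq2 called 2 higher and 0 lower (6.58% and 6.09% of genes). At an unadjusted p under 0.05, 4 were higher and 0 lower (11.1% and 11.5% of all genes). Besides Chil1, the 4 were the macrophage chitinase gene Chit1 (log2 fold change 3.96), Ly6c2 (1.64) and Ly6i (3.48 times by the fit). Itgb2, the chain that pairs with CD11 integrins, had 84.8, 131 and 107 CPM against 143, 110 and 259 CPM (0.66), with overlap, while Itgb2l did not overlap. Fcna, the macrophage ficolin (−1.56), and the transferrin gene Trf (0.96) overlapped too, as did Ly6a (−1.93), Ly6c1 (1.25) and Pglyrp2 (0.41). Of the 10 genes, 6 shared no 50-base run with another gene's transcripts. Cd177 shared 5.51% of its runs (chiefly with Gm4763), Ly6g 0.448%, and Pglyrp1 2.67%, the latter spread over 133 genes. Reads from such runs, like those shared by Chil3 and Chil4, could be assigned to either gene.

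Position on the chromosome was compared with the differences. Camp, Ngp and Ltf lie within 1195 kb on chromosome 9 of GRCm38 (Camp from 109847379 to 109849617 on the reverse strand, Ngp from 110419747 to 110423012 and Ltf from 111019271 to 111042767 on the forward strand), with 570 kb from Camp to Ngp and 596 kb from Ngp to Ltf. The 16 other tested genes of that stretch had log2 fold changes from −1.86 to 1.21, with a median of 0.11. Ptpn23 and Klhl18, beside Ngp, had −0.75 and −0.43. Nme6 and Cdc25a, beside Camp, had 0.93 and 0.81, and Lrrc2 and Ccrl2, beside Ltf, had 0.60 and −1.25. Around all 10 genes, the 5 nearest tested genes on each side numbered 96, with a median of 0.21; 13 were higher and 14 lower by the unadjusted p, against 11.1% and 11.5% of all genes. Of the 96, 5 had a log2 fold change above 2. The largest was Ceacam10 beside Cd177, itself a neutrophil gene with few counts in Gata2+/+, and Gm13372 beside Fcnb had 3.59.

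**Figure D5:**
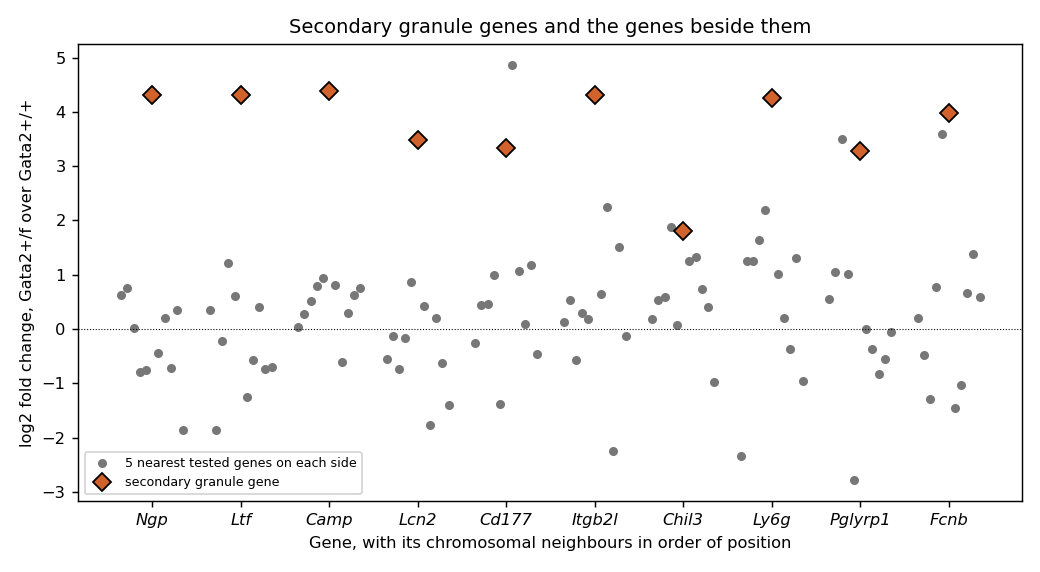
Log2 fold change, Gata2+/f over Gata2+/+, of each secondary granule gene (orange diamonds) and of the 5 nearest tested genes on each side (grey points), in order of position. The neighbours have a median of 0.21, while the diamonds lie between 1.81 and 4.38.

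Among genes outside the 10 with a mean of 1 CPM or more, those whose log2(CPM + 1) followed the mean of the 10 most closely over the 6 libraries were S100a9 (Pearson's r 0.997), G6pdx (0.997), 2310058D17Rik (0.996), Fads6 (0.996) and S100a8 (0.995). Of all 12597 genes at that level, the 10 themselves included, 1.14% had an r above 0.95. G6pdx encodes the enzyme that opens the pentose phosphate pathway, which supplies NADPH to the oxidase of neutrophils. It had 72.7, 95.4 and 84.7 CPM in Gata2+/+ and 162, 159.8 and 189.7 CPM in Gata2+/f (log2 difference 1.02). Fads6, a gene of the fatty acid desaturase family, had 0.620, 1.43 and 0.810 CPM against 3.16, 3.83 and 5.29 CPM (2.10).

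Markers of other cells were counted over the same contrast. Of 15 monocyte and macrophage markers 14 had positive values (median 1.62). At an unadjusted p under 0.05, 7 were higher and 0 lower (11.1% and 11.5% of all genes), with none past edgeR's adjusted threshold. DESeq2 called 6 higher and 0 lower (6.58% and 6.09% of genes). The 15 markers summed to 354 to 885 CPM in Gata2+/+ and 1130 to 2620.5 CPM in Gata2+/f. Csf1r, the receptor of the macrophage growth factor, had 39.0, 122 and 36.8 CPM against 166, 157 and 363 CPM. The 9 secondary granule genes were 2.19 to 4.73 times Csf1r in Gata2+/+ and 10.6 to 16.6 times in Gata2+/f, without overlap. Of 8 dendritic cell markers 7 were positive (median 2.12, or 1.36 where 1 CPM in 3 libraries was required; summed 42.9 to 66.7 CPM against 139 to 210 CPM), and of 7 tested eosinophil markers 4 were (0.89, or 1.90 without Gata2+/+ replicate 5 and 1.68 with weighted voom; 130 to 182 CPM against 58.9 to 94.2 CPM), with Prg2 at 2.74 and Siglecf at −2.23. No monocyte or dendritic cell marker was at 0 in a library. Of the eosinophil markers, Epx was at 0 in 1 Gata2+/+ library, Ear1 in 1 library of each group, and Ear6 in 3 Gata2+/+ and 1 Gata2+/f libraries.

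Mast cell and basophil markers had a median of −2.62, which was −3.67 without Gata2+/f replicate 11, −3.90 with voom and −3.75 with weighted voom. Of the 10 markers 9 were negative, with Hdc and Cma1 at −1.79 and −5.39. The 1 positive marker, at 2.88, was higher without overlap, and 6 of the others were lower without overlap (13.1% and 16.6% of all genes). By the unadjusted p 1 was higher and 5 lower, against 11.1% and 11.5% of all genes. DESeq2 called 1 of the 10 higher and 4 lower, against 6.58% and 6.09% of genes. Mcpt4 had 1, 1 and 11 counts in Gata2+/f and Tpsb2 0, 0 and 1. Erythroid markers had a median of −0.94 (3 of 8 positive; 6189 to 10338 CPM against 1111 to 6319 CPM) and megakaryocyte markers 0.97, which turned to −0.99 where 1 CPM in 3 libraries was required and was 2.03 without Gata2+/+ replicate 5 (3 of 5 positive; 497 to 650 CPM against 23.0 to 129 CPM, mostly Itga2b). B cell markers summed to 3.46 to 9.65 CPM against 15.7 to 24.3 CPM (5 of 5 tested positive; median 1.17) and T and NK markers to 10.6 to 42.6 CPM against 22.2 to 107 CPM (5 of 5; 0.94, or 1.95 without Gata2+/+ replicate 6 and 1.75 with no filter beyond 1 count). Stem and progenitor markers had 3 of 8 positive (median −0.35; 2131 to 2976 CPM against 1175 to 1914 CPM). None of the markers of other cells passed edgeR's adjusted test. The 9 secondary granule genes stood at 0.110 to 0.220 times Kit in Gata2+/+ and 11.7 to 14.9 times in Gata2+/f. Since the 9 genes were higher and Kit lower, each without overlap, this ratio could not overlap and is not a separate result. What part the other cell types or the lower Kit of the sorted cells have in the secondary granule result was not tested.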

How the data were processed

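RNA-seq was made from 6 samples of sorted c-kit+ marrow, 3 per genotype. The marrow had been frozen before the sort, and libraries were poly-A selected and stranded, per the labels' protocols. Tools named in the submitters' processing notes are RSEM 1.3.0, STAR 2.5.4a and CASAVA 1.8.2, with the build GRCm38. The deposited values are the authors' RSEM expected counts (estimated counts per gene, unnormalized; 11.7% were not whole). The annotation release and strand setting are not given in the sources used here, so overlapping genes are uncertain.

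Symbols and positions came from GENCODE M21, exon lengths from its merged exons. Counts were rounded, filtered with filterByExpr (minimum count 10; 15432 genes) and scaled by TMM. Libraries held 53789568 to 67854631 counts, where 3 counts are 0.0424 to 0.0600 CPM. The genotypes were compared with the quasi-likelihood test of edgeR 4.0.16 in R 4.3.3 (two-sided, no covariate, Benjamini-Hochberg over all genes, threshold 0.05). Standard errors are the log2 fold change over the root of F. DESeq2 1.42.0, limma 3.58.1 (voom), other scalings and filters, and leaving out each library were alternatives. The fit was tested on simulated counts with 200 changed genes. No 2 libraries were duplicates.

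The 10 genes, the 15 other lists, the motifs and the ratios were chosen with earlier results of these data known. Names were drawn from Gata2, Kit, the 10 genes and their tested paralogs, up to 4 genes with the smallest p of each list, C/EBP genes and Gfi1, nearest neighbours, and the 5 genes most like the mean of the 10. Not every tested paralog, list gene or nearest neighbour among these is named. Other names were chosen after their values were seen. Protein sequences were not used here; shared 50-base runs of GENCODE transcripts took their place, and promoter windows were limited to the 250 bases before the RefSeq start.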

Additional observations from a re-analysis of the deposited data

How the results depend on the processing

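All 10 secondary granule genes had positive log2 fold changes under each of the 14 alternatives, with Ngp between 4.06 and 4.58 and Chil3 between 1.26 and 2.34. How many passed an adjusted p under 0.05 depended on the test. From 0 of 10 in the reported fit, the number was 10 with DESeq2 (1829 genes called in all), 4 with limma voom (9 in all), 5 with voom and sample quality weights (18 in all), 4 with the bias-adjusted quasi-likelihood test (32 in all) and 4 with no filter beyond 1 count (19 in all). Over the fits that left out 1 library each, it was 0 to 4, and the genes called in all were 0 to 66; the 4 and the 66 came without Gata2+/f replicate 11. Ngp, Ltf, Camp and Itgb2l each passed in 6 of 14 alternatives. DESeq2's size factors, upper quartile factors and a filter of 1 CPM in 3 libraries gave 0. The cause of these differences was not tested. Upper quartile factors moved the median of all genes from 0.019 to 0.11 and, among genes with an unadjusted p under 0.05, the higher ones from 49.3% to 58.3%. The median of the megakaryocyte markers was −0.99 with the filter of 1 CPM in 3 libraries. The mean share of Chil3 in the summed CPM of Gata2+/f was 46.8%, and 42.4% to 53.1% with 1 Gata2+/f library left out, an alternative chosen after seeing the data. Per kilobase it was 44.4%. No paired analysis was possible because the 2 groups share no replicate number. Depth limits Ly6g most, at 4 to 24 counts in Gata2+/+.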
